A study of Mus musculus with 6 samples.

Results

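Imprinted genes are transcribed mainly from one parental allele, and 46 of them outside the Dlk1-Meg3 and H19-Igf2 loci were taken from a list of gene symbols, with no threshold on these counts. The list was read in RNA-Seq gene counts of embryonic mouse cardiomyocytes after knockdown of the maintenance DNA methyltransferase DNMT1. Of the 46 genes, 45 were found among the 43629 genes of the count files, and Peg13 was not analysed here. Counts were high enough for the test in 35 of the 45. Cultures came from ventricles of CD-1 mouse embryos at embryonic day 13.5, were grown for 48 h, and were transfected with 12 nM DNMT1 siRNA (a pool of siRNAs, n = 3 cultures) or 12 nM of a negative control siRNA (n = 3 cultures). Ventricles of a litter were pooled, cells were collected 72 h after transfection and sorted on magnetic columns for the surface protein VCAM1, and poly(A) RNA was sequenced. For the 3 knockdown samples a treatment tag in the labels reads DNMT3a siRNA. Their titles and the study's methods name DNMT1, and these were followed.

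An imprint is laid down as DNA methylation at a differentially methylated region (DMR) in the egg or the sperm. DNMT1 copies this methylation to the new strand at each cell division, and ZFP57 with TRIM28 protects it in the early embryo. At most imprinted clusters the egg-derived copy of the DMR is methylated and its promoter silent, so that a transcript, often a long non-coding RNA, is made from the paternal copy and can silence neighbouring genes in cis. Imprinted genes are known for their roles in growth of the embryo and the placenta, and many are abundant in mesodermal tissues of the embryo, the heart included.

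Dnmt1 itself, the target of the siRNA, fell from a mean of 3028 to 741.2 normalized counts (edgeR, log2 fold change -2.03, SE 0.11, adjusted p = 0.000192). Normalized counts are read counts divided by each library's relative size after TMM scaling. Reads counted on genes numbered 27852412 to 35896018 in the negative siRNA libraries and 13739561 to 16186310 in the DNMT1 siRNA libraries. Uniquely mapped reads outside annotated exons made up 14.6 to 17.5% with negative siRNA and 24.4 to 32.0% with DNMT1 siRNA. Markers of both cardiomyocytes and fibroblasts were present in the negative siRNA cultures, with the cardiac genes Actc1 and Tnnt2 at 237 and 100 RPKM (reads scaled to exon length and library size), the collagen gene Col1a1 at 3542 RPKM, and the fibroblast markers Tcf21 and Pdgfra at 78.6 and 18.0 RPKM. The summed level of 10 cardiomyocyte markers ranged from 48096 to 60620 normalized counts with negative siRNA and from 111297 to 135967 with DNMT1 siRNA, and 8 of the 10 were called higher. For 10 fibroblast markers the sum ranged from 843474 to 1270800 with negative siRNA and from 652781 to 692856 with DNMT1 siRNA, and 3 were called lower (Col1a1, Col1a2 and Dcn). Col1a1 alone had a mean of 504778 normalized counts in the negative siRNA cultures. In the same list Thy1 was higher (log2 fold change 0.36, edgeR adjusted p = 0.0137, short of the fold limit) and Tcf21 was at 0.0052. Of 9 endothelial markers 3 were called higher, with sums of 3030 to 4065 against 4632 to 4764. The sum of 7 epicardial markers, of which 1 was called lower, ranged from 35519 to 41052 and from 39219 to 41116. For 7 smooth muscle and pericyte markers, 1 of them called lower, the ranges were 118083 to 175011 and 98999 to 103128. Of 8 macrophage markers 7 were tested and 1 was called lower, with sums of 337 to 879 against 278 to 411. None of the 4 tested of 9 neural markers and of the 1 tested of 5 erythroid markers was called, with sums of 1552 to 2773 against 1570 to 1678 and of 11.7 to 29.5 against 26.8 to 64.1, and the globin genes Hba-a1 and Hbb-bt were at 0 in the 3 negative siRNA cultures. In these bulk samples, fewer cells of a type and less RNA per cell cannot be told apart, and the part of these shifts in the values of the imprinted genes was not tested.

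A gene was called where its adjusted p in edgeR's quasi-likelihood test (FDR over 15470 tested genes) was below 0.05 and its fold change above 1.5. Among the 35 tested imprinted genes, 4 were called higher with DNMT1 siRNA (4.26% of all tested genes were called higher) and 0 lower (2.23% of all tested genes), beside 6.49% called in either direction. The 4 were Mest, Ddc, Kcnq1ot1 and Tssc4. At an unadjusted edgeR p below 0.05, Slc38a4, Atp10a and Nnat were lower, and of the uncalled genes Ppp1r9a, Ndn, Cd81 and Zrsr1 were higher. The share of all tested genes at this unadjusted limit was not computed. DESeq2 and edgeR's exact test called 0 lower, as in the reported fit. In both, however, Slc38a4 (DESeq2 adjusted p = 0.00633, exact test 0.0157) and Atp10a (0.0344 and 0.0399) passed the FDR limit and missed only the fold limit. In the reported fit the other 31 did not pass the FDR limit at any fold change, which 12.5% of all tested genes did. Log2 fold changes of the 35 genes ranged from -0.68 to 1.58 with a median of 0.01, beside a median of -0.0049 over all tested genes. They were above 0 for 18 genes and below 0 for 17. The treatments were apart, with no overlap between cultures, for 10 genes with higher and 6 genes with lower counts after DNMT1 siRNA, beside 18.3% and 17.7% of all tested genes. The calls of Mest and Ddc were made in each of the 6 fits that left out 1 culture, those of Tssc4 and Kcnq1ot1 were not.

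**Figure D1:**
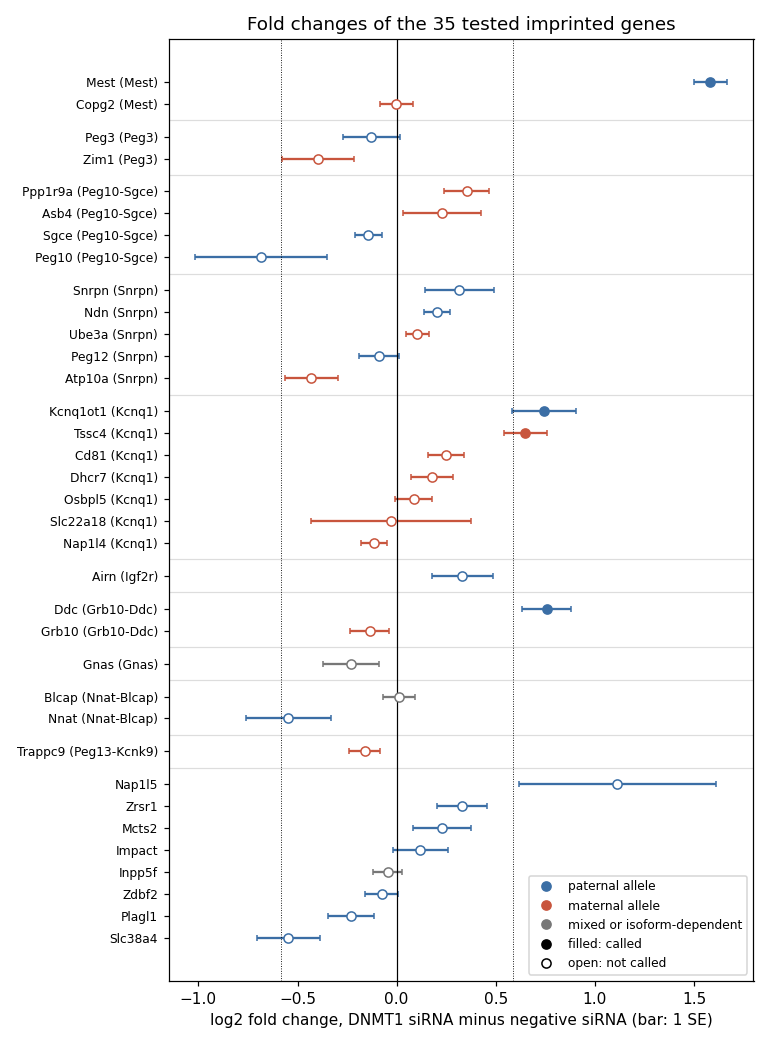
Log2 fold change (DNMT1 siRNA over negative siRNA, with its SE as a bar) of the 35 tested imprinted genes, ordered by cluster. Mest stands highest at 1.58, and the other 3 filled points, Ddc, Kcnq1ot1 and Tssc4, lie between 0.65 and 0.76.

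Mest (ENSMUSG00000051855, chr6:30723547-30748465 of GRCm38, plus strand) encodes a protein of the alpha/beta hydrolase fold that marks mesoderm in the embryo. It is expressed from the paternal allele, and its promoter lies at a maternally methylated germline DMR. Its normalized counts were 536.3, 623.2 and 531.1 in the negative siRNA cultures, and 1695, 1689 and 1680 in the DNMT1 siRNA cultures. Every culture with DNMT1 siRNA lay far above every control culture. The values with DNMT1 siRNA had a coefficient of variation of 0.459%, the lowest of the tested genes of the list. Their raw counts were 1264, 1159 and 1027, and counting error alone exceeds that spread at such counts. The closeness of the 3 values is therefore not read as a trait of Mest. The mean rose from 563.5 ± 51.7 to 1688 ± 7.74 (SD, n = 3 each). The log2 fold change was 1.58 (SE 0.08, edgeR adjusted p = 0.000192), 3.00-fold. Per length, its mean level went from 6.58 to 19.7 RPKM.

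Copg2, which encodes a coatomer subunit and is reported as maternally expressed, meets the far end of Mest tail to tail on the other strand, and their exons share 912 bases. It had normalized counts of 846.1, 954.8 and 883.4 with negative siRNA and 958.8, 844.0 and 875.0 with DNMT1 siRNA. The groups overlapped, and the log2 fold change was -0.0029 (SE 0.08, edgeR adjusted p = 0.986). Klf14, a transcription factor gene of the same cluster, had raw counts of 5, 4 and 1 with negative siRNA and of 2 in each DNMT1 siRNA culture, below the filter. Within 250 kb of the annotated start of Mest, the 3 other tested genes, Tmem209, Cep41 and Copg2, had log2 fold changes from -0.12 to -0.0029, and none was called.

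A promoter sequence of Mest is shown because Mest had the largest called change and is ascribed a promoter at a DMR. Whether the printed bases lie at the DMR was not tested. RefSeq (GRCm38.p6) promoter windows of the 250 bases before a start site were available for 38 of the 46 genes, and where a gene had several windows the one with the most CpG was used. The Mest window, chr6:30737800-30738049 on the plus strand, is 1 of 3 windows of the gene and has 14 CpG. Capitals mark TGCCGC, the sequence bound by ZFP57 when methylated, or its reverse complement GCGGCA, which were searched on both strands and occur in 2 copies here.

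Mest promoter: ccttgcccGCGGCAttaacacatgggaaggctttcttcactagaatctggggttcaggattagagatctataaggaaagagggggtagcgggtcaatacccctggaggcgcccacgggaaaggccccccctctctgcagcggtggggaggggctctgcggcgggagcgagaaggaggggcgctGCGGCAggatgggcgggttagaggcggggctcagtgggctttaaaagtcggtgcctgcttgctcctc

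Ddc (ENSMUSG00000020182, chr11:11814101-11898144, minus strand) encodes aromatic L-amino acid decarboxylase, the enzyme that makes dopamine and serotonin from their precursors, and a transcript of it is known to be paternally expressed in the embryonic mouse heart. The gene-level count does not separate this transcript from others of Ddc. Normalized counts were 320.4, 394.3 and 331.3 with negative siRNA and 673.2, 559.7 and 533.2 with DNMT1 siRNA. The lowest of the latter stood above the highest control. The mean rose from 348.7 ± 39.9 to 588.7 ± 74.3 (SD, n = 3 each). The log2 fold change was 0.76 (SE 0.12, edgeR adjusted p = 0.0083), 1.69-fold. Its neighbour Grb10 (chr11:11930508-12038683, minus strand), an adaptor that restrains insulin and IGF receptor signalling and is maternally expressed in most tissues, was the second most abundant gene of the list. Grb10 had 34599, 42985 and 35650 normalized counts with negative siRNA and 34508, 32850 and 35647 with DNMT1 siRNA. Here the groups overlapped, and the log2 fold change was -0.14 (SE 0.10, edgeR adjusted p = 0.395). Within 250 kb of the start of Ddc, the 3 other tested genes (Grb10, Fignl1 and Ikzf1) ranged from -0.23 to -0.06, and none was called. Cobl, which encodes an actin nucleator and belongs to the list of host and neighbouring genes, was called higher (log2 fold change 0.81, SE 0.11, edgeR adjusted p = 0.00439). The Ddc window, chr11:11890409-11890658 on the minus strand, is printed for contrast with that of Mest, having 4 CpG and no ZFP57 sequence. It was taken from 2 windows by CpG count and need not be that of the paternally expressed transcript.

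Ddc promoter: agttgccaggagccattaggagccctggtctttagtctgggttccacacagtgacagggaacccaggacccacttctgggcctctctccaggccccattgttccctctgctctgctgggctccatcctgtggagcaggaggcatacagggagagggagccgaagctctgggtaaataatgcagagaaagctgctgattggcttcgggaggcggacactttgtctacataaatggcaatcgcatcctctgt

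Of the 9 listed genes in the Kcnq1 cluster on chromosome 7, 7 were tested and 2 were called higher, beside 4.26% of all tested genes. Both lie within the spans of other genes on the opposite strand. Kcnq1ot1 (ENSMUSG00000101609, chr7:143203458-143296549, minus strand) is a paternally expressed long RNA antisense to the potassium channel gene Kcnq1, and is known to silence its neighbours in cis. Its normalized counts were 479.7, 428.8 and 549.0 with negative siRNA and 631.6, 970.8 and 837.4 with DNMT1 siRNA. The groups did not overlap, although the DNMT1 siRNA cultures were spread over a wide range. The mean rose from 485.8 ± 60.3 to 813.2 ± 171 (SD, n = 3 each). The log2 fold change was 0.74 (SE 0.16, edgeR adjusted p = 0.0229), 1.67-fold. The call was lost without DNMT1 siRNA replicate 2 (log2 fold change 0.59, edgeR adjusted p = 0.107) and without DNMT1 siRNA replicate 3 (0.70, edgeR adjusted p = 0.0959). Kcnq1ot1 is annotated as 93092 exonic bases that lie within Kcnq1 and share 121 bases with its exons. The library kit does not mark strand, so reads of Kcnq1ot1 and of Kcnq1 introns cannot be told apart. Kcnq1 was itself called higher, from a mean of 54.7 to 139.8 normalized counts (log2 fold change 1.36, SE 0.32, edgeR adjusted p = 0.0319), and the share of reads outside exons was higher with DNMT1 siRNA as given above. The part of both in the Kcnq1ot1 value was not tested.

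Tssc4 (ENSMUSG00000045752, chr7:143069249-143071093, plus strand), whose product acts in assembly of the U5 splicing particle, is listed as a maternally expressed gene of this cluster. Normalized counts were 975.1, 895.5 and 1185 with negative siRNA and 1663, 1637 and 1488 with DNMT1 siRNA. Again no control culture reached the lowest DNMT1 siRNA culture. The mean rose from 1019 ± 150 to 1596 ± 94.2 (SD, n = 3 each). The log2 fold change was 0.65 (SE 0.11, edgeR adjusted p = 0.00937), 1.57-fold. This was close to the fold limit, and the call was lost without negative siRNA replicate 2 (log2 fold change 0.57), without DNMT1 siRNA replicate 1 (edgeR adjusted p = 0.0568) and without DNMT1 siRNA replicate 2 (edgeR adjusted p = 0.0611). Tssc4 lies within Trpm5, an ion channel gene on the opposite strand that shares 220 exonic bases with it. Trpm5 went from a mean of 76.0 to 144.7 normalized counts (log2 fold change 0.93, SE 0.22, edgeR adjusted p = 0.0320), and without strand the reads of the pair cannot be fully separated. The window of Kcnq1ot1 (chr7:143296548-143296797, minus strand) has 5 CpG and that of Tssc4 (chr7:143069118-143069367, plus strand) has 17, and neither has the ZFP57 sequence. They are shown as windows of a gene listed as paternally and a gene listed as maternally expressed in this cluster, both called higher.

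Kcnq1ot1 promoter: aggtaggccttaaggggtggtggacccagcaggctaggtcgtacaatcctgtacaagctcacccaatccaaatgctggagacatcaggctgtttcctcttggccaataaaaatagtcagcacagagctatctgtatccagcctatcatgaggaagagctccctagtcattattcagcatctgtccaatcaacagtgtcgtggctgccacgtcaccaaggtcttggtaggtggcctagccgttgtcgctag
Tssc4 promoter: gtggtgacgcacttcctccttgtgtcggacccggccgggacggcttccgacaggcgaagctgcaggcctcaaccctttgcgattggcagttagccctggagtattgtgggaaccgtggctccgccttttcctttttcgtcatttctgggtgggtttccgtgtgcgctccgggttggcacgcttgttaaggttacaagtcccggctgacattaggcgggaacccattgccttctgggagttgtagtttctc

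The other 5 tested genes of the cluster on the list, all listed as maternally expressed, were not called. Imprinting can differ between tissues, and their expressed allele in these cells was not measured. Cd81, a tetraspanin and the most abundant gene of the list at 254 RPKM with negative siRNA, had 14159, 15958 and 17546 normalized counts with negative siRNA and 19437, 18413 and 18771 with DNMT1 siRNA. Its groups did not overlap, with a log2 fold change of 0.25 (SE 0.09, edgeR adjusted p = 0.106). The lipid transfer gene Osbpl5 was at 0.09, Dhcr7, which catalyses the last step of cholesterol synthesis, at 0.18, the nucleosome assembly gene Nap1l4 at -0.11 and the transporter gene Slc22a18 at -0.03. Phlda2, which limits growth of the placenta, and the trophoblast factor Ascl2 had at most 4 and 9 raw counts in any culture. Cdkn1c, a cell cycle inhibitor of the same domain that is not on the list, had a log2 fold change of -0.89 (edgeR adjusted p = 0.0719). The study itself reported decreased expression of Cdkn1c, from its own edgeR and DESeq2 calls on these same RNA-Seq samples. It also reported lower methylation at most of the CpG sites it listed for this promoter. Within 250 kb of the start of Kcnq1ot1, 3 of the 7 other tested genes were called higher (Kcnq1, Trpm5 and Tssc4), beside 4.26% of all tested genes. Tssc4 lies within Trpm5, and Kcnq1ot1 within Kcnq1, so without strand the reads of each pair cannot be fully separated. The calls of Kcnq1 and Tssc4 were not made in every fit that left out 1 culture.

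**Figure D2:**
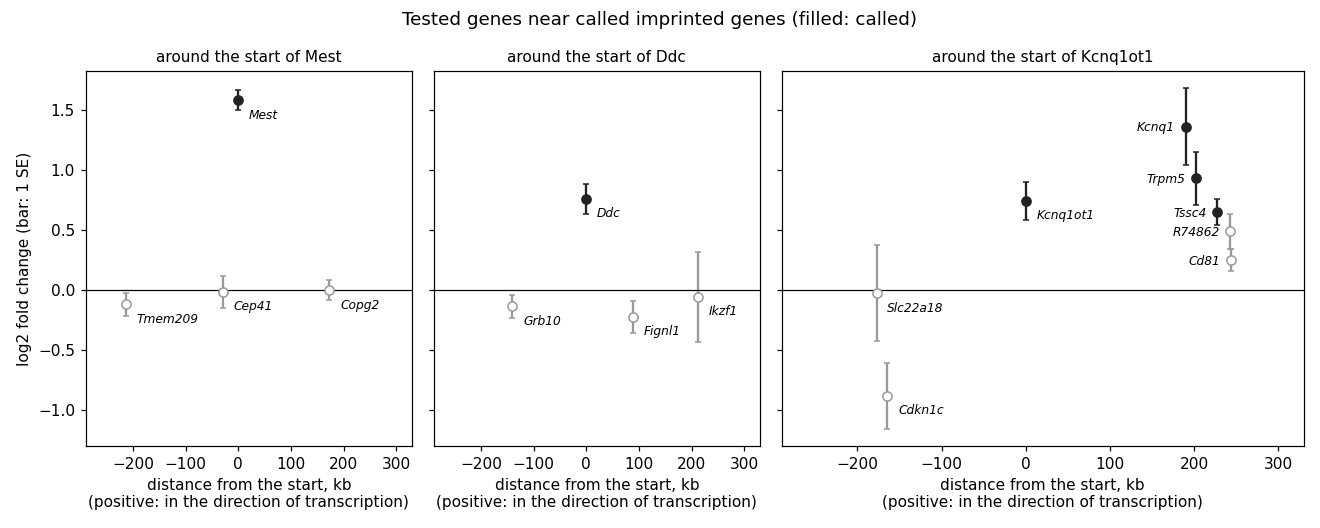
Log2 fold change with its SE (y axis) of tested genes against the distance of their start from the start of Mest, Ddc or Kcnq1ot1 in kb (x axis, positive in the direction of transcription); filled points are called. Around Mest and Ddc no neighbour was called, while 3 genes between 190 and 227 kb beyond the start of Kcnq1ot1 were, beside 4.26% of all tested genes called higher. Of these 3, Tssc4 and Trpm5 overlap each other, and Kcnq1 overlaps Kcnq1ot1.

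A promoter at a maternally methylated germline DMR was ascribed, from general knowledge of these loci and not from the data, to 16 of the 46 genes. Of the 14 tested, 2 were called higher (Mest and Kcnq1ot1), with a median log2 fold change of 0.17, and 8 values were above 0. Of the 21 tested genes without such a promoter, 2 were called higher (Ddc and Tssc4), with a median of -0.0029, and 10 values were above 0. Among all tested genes 4.26% were called higher. The other 12 tested genes with a DMR promoter did not pass the test. Peg3 (chr7:6703892-6730431, minus strand), a zinc finger gene with a growth role in the embryo, had 14748, 18743 and 11972 normalized counts with negative siRNA and 13397, 14089 and 14134 with DNMT1 siRNA. The groups overlapped, with a log2 fold change of -0.13 (SE 0.14, edgeR adjusted p = 0.597). Plagl1 (chr10:13060504-13131694, plus strand), a zinc finger transcription factor gene, had 15682, 21997 and 18574 with negative siRNA and 16420, 15410 and 16131 with DNMT1 siRNA. Its log2 fold change was -0.23 (SE 0.12, edgeR adjusted p = 0.235). Both windows are printed for comparison with the window of Mest: that of Plagl1 (chr10:13090582-13090831, plus strand) has 19 CpG and 1 copy of the ZFP57 sequence, and that of Peg3 (chr7:6730420-6730669, minus strand) has 8 CpG and no copy.

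Plagl1 promoter: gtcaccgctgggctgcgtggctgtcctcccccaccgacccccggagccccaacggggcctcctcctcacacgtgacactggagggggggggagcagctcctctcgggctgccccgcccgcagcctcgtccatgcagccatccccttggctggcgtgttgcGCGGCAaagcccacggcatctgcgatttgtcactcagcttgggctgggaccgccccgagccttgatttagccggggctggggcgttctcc
Peg3 promoter: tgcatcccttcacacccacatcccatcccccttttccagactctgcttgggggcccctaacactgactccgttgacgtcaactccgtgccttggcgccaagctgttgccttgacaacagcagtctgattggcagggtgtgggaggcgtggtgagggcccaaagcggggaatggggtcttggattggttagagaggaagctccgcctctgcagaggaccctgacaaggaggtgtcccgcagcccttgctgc

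**Figure D3:**
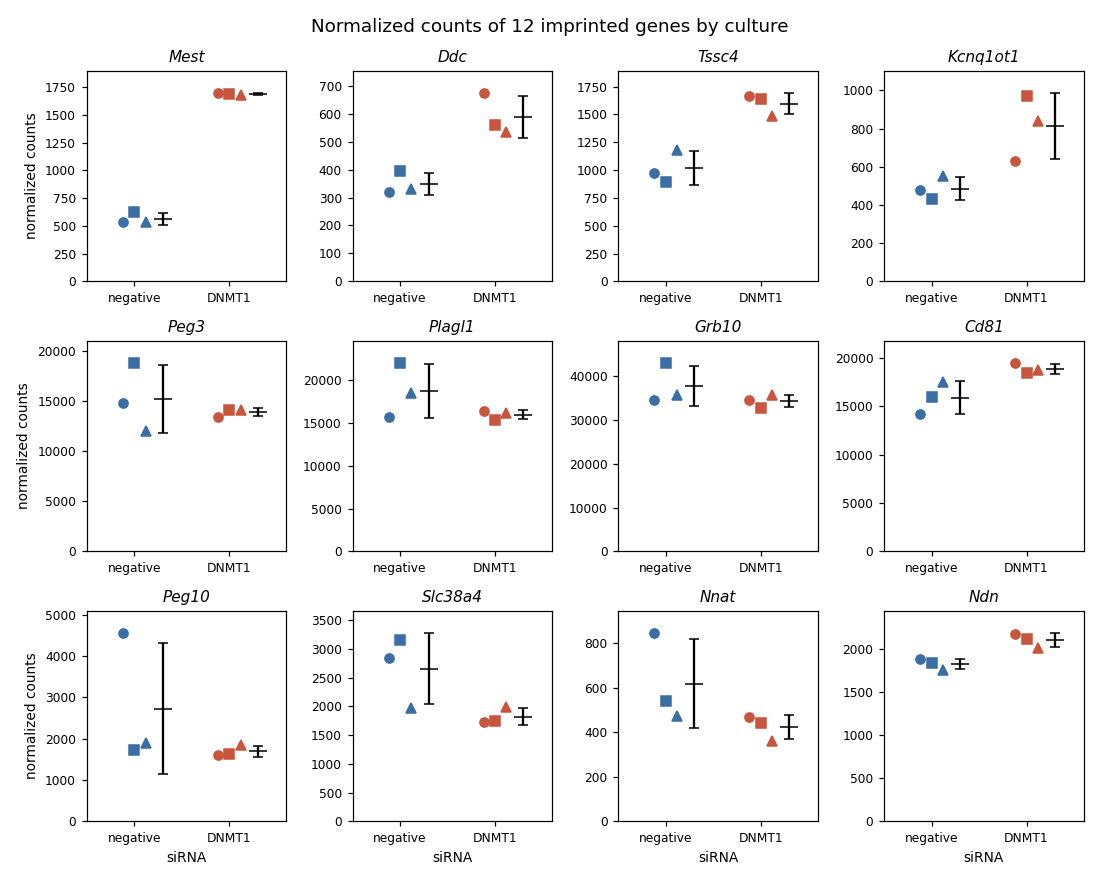
Normalized counts (y axis from 0) of 12 imprinted genes in each culture, with negative siRNA and with DNMT1 siRNA (x axis); symbols stand for cultures, and horizontal lines and bars for the mean and SD of 3 cultures. The groups are apart for Mest, Ddc, Tssc4 and Kcnq1ot1, and also for Cd81, Ndn and Nnat, which were not called, while Peg3, Plagl1, Grb10, Peg10 and Slc38a4 overlap.

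The amino acid transporter gene Slc38a4 had 2844, 3150 and 1967 normalized counts with negative siRNA and 1723, 1742 and 1992 with DNMT1 siRNA. Negative siRNA replicate 3 lay among the DNMT1 siRNA cultures, and the log2 fold change was -0.55 (SE 0.16, edgeR adjusted p = 0.0603). Without that culture it was -0.72 and was called lower (edgeR adjusted p = 0.00645). Nnat, which encodes the membrane proteolipid neuronatin and lies in an intron of Blcap, had 843.2, 539.8 and 471.2 with negative siRNA and 468.0, 440.2 and 361.4 with DNMT1 siRNA. These groups did not overlap but nearly met, and the log2 fold change was -0.55 (SE 0.21, edgeR adjusted p = 0.133). Peg10, a retrotransposon-derived gene needed for the placenta, had 4552, 1730 and 1907 with negative siRNA and 1614, 1638 and 1851 with DNMT1 siRNA. Its log2 fold change of -0.68 (SE 0.33, edgeR adjusted p = 0.215) was the lowest of the list and rested on negative siRNA replicate 1, without which it was -0.10. Sgce, which encodes epsilon-sarcoglycan and starts next to Peg10 on the other strand, had 1366, 1410 and 1334 with negative siRNA and 1204, 1224 and 1294 with DNMT1 siRNA. The groups were apart by a small step, a log2 fold change of -0.14 (SE 0.07, edgeR adjusted p = 0.201).

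The remaining 6 tested genes of this kind had log2 fold changes from 0.12 to 1.11, and none passed the test. Airn, the paternally expressed RNA that silences Igf2r in cis, had 270.2, 339.2 and 264.4 normalized counts with negative siRNA and 347.3, 437.3 and 314.0 with DNMT1 siRNA. The groups overlapped, with a log2 fold change of 0.33 (SE 0.16, edgeR adjusted p = 0.200), while Igf2r was at -0.08. Snrpn, which encodes a spliceosomal Sm protein and shares 589 exonic bases with the annotated gene Gm38393 on the same strand, had 90.5, 127.5 and 122.1 against 151.5, 128.3 and 142.3, a log2 fold change of 0.32 (SE 0.17, edgeR adjusted p = 0.271). For Impact, an inhibitor of the translation kinase GCN2, the counts were 2414, 1582 and 2231 against 2264, 2240 and 2264, with a log2 fold change of 0.12 (SE 0.14, edgeR adjusted p = 0.609). The retrogenes Zrsr1, Mcts2 and Nap1l5, which lie within Commd1, H13 and Herc3, complete the group. Zrsr1, with a role in splicing, had 179.7, 166.1 and 147.7 with negative siRNA and 202.5, 217.2 and 201.2 with DNMT1 siRNA, and did not overlap (log2 fold change 0.33, SE 0.13, edgeR adjusted p = 0.129). Mcts2 had 162.8, 133.7 and 143.1 against 194.4, 163.3 and 157.0 (log2 fold change 0.23, SE 0.15, edgeR adjusted p = 0.340). Nap1l5 was near the detection limit, with raw counts of 18, 12 and 8 against 5, 17 and 15, and its log2 fold change of 1.11 had an SE of 0.50 (edgeR adjusted p = 0.181). Of their host genes, Commd1 was at -0.07 and Herc3 at 0.18, and H13 had a log2 fold change of -0.36 with an adjusted p of 0.0159 in edgeR, short of the fold limit. Reads of near-identical copies, such as Mcts1 for Mcts2 and Zrsr2 for Zrsr1, could be shared by the mapping, so that the retrogene values are uncertain.

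The Snrpn cluster on chromosome 7 held 6 listed genes, of which 5 were tested and none was called (median log2 fold change 0.10). The growth suppressor gene Ndn, its most abundant gene at 22.7 RPKM with negative siRNA, had 1880, 1834 and 1760 normalized counts with negative siRNA and 2171, 2114 and 2010 with DNMT1 siRNA. No culture overlapped, but the log2 fold change was only 0.20 (SE 0.07, edgeR adjusted p = 0.0808). Ube3a, a ubiquitin ligase gene that is imprinted in neurons and not in most other cells, was at 0.10, and the phospholipid flippase gene Atp10a at -0.43 (SE 0.13, edgeR adjusted p = 0.0712). Peg12 was at -0.09, and Magel2 had 2 to 9 raw counts. In the Peg3 cluster, the maternally expressed zinc finger gene Zim1 had a log2 fold change of -0.40 (SE 0.18, edgeR adjusted p = 0.190) with groups that did not overlap. In the Peg10-Sgce cluster the maternally expressed genes Ppp1r9a, which encodes the actin-binding protein neurabin, and Asb4 were at 0.35 and 0.23, and neither passed the test. Gnas, the stimulatory G protein subunit with maternal, paternal and biallelic transcripts, was at -0.23, and its gene-level count does not separate them. Blcap was at 0.01, Trappc9 of the Peg13-Kcnk9 cluster at -0.16, Zdbf2 at -0.08 and Inpp5f at -0.05.

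Genes were also grouped by the allele listed as expressed, which can differ between tissues. Of 18 tested paternally expressed genes 3 were called higher, with a median log2 fold change of 0.16. Among maternally expressed genes 1 of 14 was called higher, with a median of 0.04, beside 4.26% of all tested genes called higher. The calls of Kcnq1ot1 (paternal) and Tssc4 (maternal) were not made in every fit that left out 1 culture. None of the 3 genes with mixed expression was called (median -0.05). Values above 0 were found for 10 of 18 paternal and 7 of 14 maternal genes. The counts hold no allele information, so whether a silent allele gained expression was not measured.

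The 10 genes below the filter had 0 to 13 raw counts in any culture, and no fold change is given for them. Besides Klf14, Magel2, Phlda2 and Ascl2 they were the transporter genes Slc22a2 (1, 0 and 1 with negative siRNA against 0, 6 and 3 with DNMT1 siRNA) and Slc22a3 (4, 2 and 0 against 0, 3 and 0), the calcitonin receptor gene Calcr (1, 2 and 0 against 0, 4 and 1), the deubiquitinase gene Usp29 (10, 6 and 10 against 4, 4 and 0), the potassium channel gene Kcnk9 (0 in each negative siRNA culture against 0, 1 and 2) and the guanine nucleotide exchange factor gene Rasgrf1 (2, 2 and 1 against 0, 13 and 4). They were not tested in the reported fit. Without the filter Rasgrf1 was called higher, on counts that came mostly from DNMT1 siRNA replicate 2.

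Levels of the 35 tested genes spanned from 0.208 to 254 RPKM with negative siRNA. Cd81 (254 RPKM), Grb10 (191 RPKM) and Plagl1 (110 RPKM) led, followed by Peg3 (52.4 RPKM), Nap1l4 (33.8 RPKM) and Slc38a4 (28.7 RPKM). Neighbours in the order from Slc38a4 through Osbpl5 (27.1 RPKM) to Tssc4 (25.4 RPKM) lay within an SD of each other, with SDs of 6.64, 3.44 and 3.73 RPKM. Mest ranked at 17 with negative siRNA, and Kcnq1ot1 (0.240 RPKM over its long span) and Nap1l5 (0.208 RPKM) came last. The coefficient of variation between cultures had a median over these genes of 12.7% with negative siRNA and 4.84% with DNMT1 siRNA, beside 12.2% and 6.88% over all tested genes.

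The promoter windows of the 30 tested genes with a window had a median of 13 CpG, beside 17 in the windows of all tested genes. Among them, windows of 11 genes ascribed a DMR promoter had a median of 8 CpG and those of the 19 others a median of 16. Windows were chosen by CpG count and not by position, so a window need not lie at the DMR. Several lie inside the genes, away from the annotated starts, among them those of Snrpn (chr7:60047979-60048228) and Slc38a4 (chr15:97020360-97020609). This also holds for the printed windows of Mest, Ddc and Plagl1, and for those of Gnas, Osbpl5, Asb4 and Blcap. A DMR can also extend into the transcribed part, which these windows do not cover. The ZFP57 sequence was present in 7 of the 30 windows (23.3%), in 4 of these 11 and in 3 of the 19 others. It was present in 15.03% of windows of all tested genes and 9.15% of all windows. Of the 4 called genes only Mest had it.

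**Figure D4:**
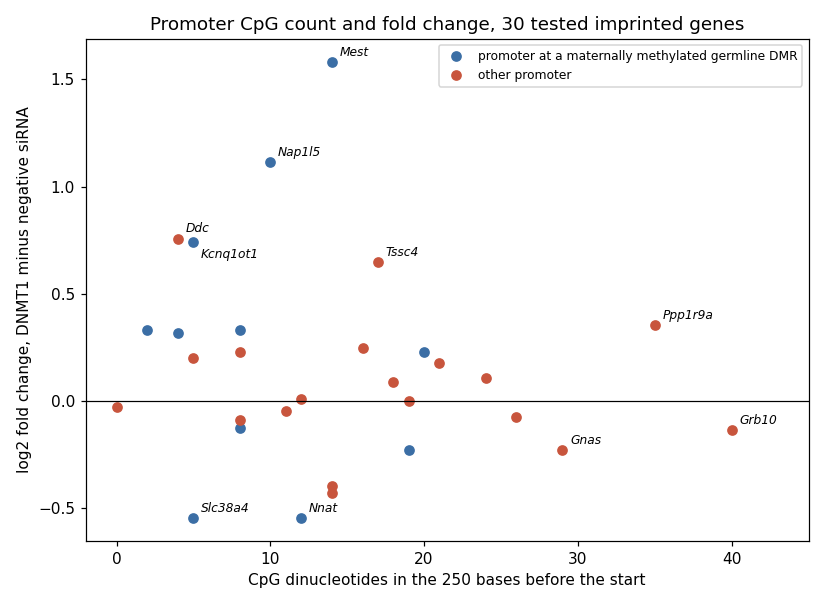
Log2 fold change (y axis) against the number of CpG in the 250 bases before the start (x axis) for the 30 tested imprinted genes with a RefSeq window. Genes ascribed a DMR promoter are marked, and the window shown need not lie at the DMR. The 4 called genes had 4 to 17 CpG, and Grb10, with 40 CpG, the highest count, had a log2 fold change of -0.14.

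In a list of 15 genes of imprint maintenance, 13 were tested, 0 were called higher and 1 was called lower, which was Dnmt1. Trim28, the partner of ZFP57, had a log2 fold change of -0.28 with an adjusted p of 0.0284 in edgeR, short of the fold limit. Zfp57 was expressed (15.7 RPKM with negative siRNA) and was at 0.24 (edgeR adjusted p = 0.144), and Uhrf1, which brings DNMT1 to newly replicated DNA, was at -0.22 (edgeR adjusted p = 0.291). Of 18 further imprinted genes, 15 were tested. Meg3 and Kcnq1 were called higher and Dlk1 lower in this list, with log2 fold changes of 0.63, 1.36 and -1.09. None of the 3 calls of this list was made when any DNMT1 siRNA culture was left out.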

How the data were processed

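Raw counts per Ensembl gene were deposited by the authors, who checked reads with FastQC, mapped them to mm10 (GRCm38) with TopHat2 and counted them with HTSeq. The strand setting is not given in the sources used here, and the kit does not mark strand. The 5 HTSeq rows that name no gene were left out of library sizes: reads outside exons were 16.4% (negative siRNA) and 29.3% (DNMT1 siRNA) of uniquely mapped reads, and reads on exons of several genes 3.62% and 6.15%. Library totals of 13739561 to 35896018 counts leave low-count genes with wide errors.

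Counts were tested in R 4.3.3 with edgeR 4.0.16 (TMM, filterByExpr with a minimum count of 10 and total of 15, quasi-likelihood F test, group only, Benjamini-Hochberg adjustment). SE is the absolute log2 fold change over the square root of F. The labels do not say that cultures came from separate litters, so p values measure the spread between cultures. No library was a copy of another (chi-square per degree of freedom 2.70 to 54.5). Positions came from GENCODE M21, newer than the authors' annotation. The code was tested on simulated data. Alternatives were RLE scaling, no filter, DESeq2 1.42.0, edgeR's exact test, a replicate block, no fold limit and leaving out each culture.

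The genes and lists were chosen with earlier results of these data known. Full values are given for called genes, genes past the FDR limit alone and tested genes with a DMR promoter, up to 3 per cluster for the others, and raw counts below the filter. Genes named beyond this rule were chosen after their values were seen. Gene roles, expressed alleles and DMR promoters are general knowledge.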

Additional observations from a re-analysis of the deposited data

Results flagged for a closer look

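The rows of the count files that hold reads given to no gene lie outside the comparison of genes, and 2 of them stood above the level of the negative siRNA libraries. Uniquely mapped reads on no annotated exon made up 29.3% ± 4.23 (SD, n = 3) with DNMT1 siRNA and 16.4% ± 1.58 (SD, n = 3) with negative siRNA. Reads on exons of more than 1 gene made up 6.15% ± 0.175 (SD, n = 3) with DNMT1 siRNA and 3.62% ± 0.0343 (SD, n = 3) with negative siRNA. The lowest DNMT1 siRNA library was above the highest negative siRNA library in both, at 24.4% against 17.5% and at 6.02% against 3.65%. Genes that share exons or lie in introns of others, among them Kcnq1ot1, Tssc4, Airn and Mest, are those whose counts touch these reads, and the part of these reads in their values was not tested.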

How the results depend on the processing

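Of the imprinted genes tested, 4 were called higher with RLE scaling, DESeq2, edgeR's exact test, the replicate block and no fold limit, as in the reported fit. Without the filter 5 were called higher, Rasgrf1 being added at 13 raw counts or fewer, and 1 lower (Peg10, -0.72). Leaving out 1 culture gave 2 to 4 higher and 0 to 1 lower. The lowest count, 2, was without DNMT1 siRNA replicate 2, with Mest and Ddc called, and the 1 lower gene was Slc38a4 without negative siRNA replicate 3. Mest ranged from 1.54 to 1.66 and Ddc from 0.62 to 0.86 in these fits.

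Equal replicate numbers did not pair cultures: the correlations of deviations were 0.0064, -0.021 and 0.027 for equal numbers and up to 0.065 for others. With the replicate block the edgeR adjusted p was 0.00164 for Mest, 0.0249 for Ddc, 0.0280 for Tssc4 and 0.0423 for Kcnq1ot1, and over all genes 513 were called higher and 285 lower. Over all tested genes, leaving out 1 culture gave 255 to 823 higher and 112 to 472 lower, the exact test 824 and 460, and no filter 994 and 701 of 31775.

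Directions turned only for genes near 0 that were not called. Blcap was -0.019 without the filter, and with 1 culture left out Blcap ranged from -0.045 to 0.065, Slc22a18 from -0.28 to 0.19, Copg2 from -0.082 to 0.047, Peg3 from -0.27 to 0.054, Osbpl5 from -0.0091 to 0.17 and Impact from -0.043 to 0.24. The cause was not tested. Counts of called markers ranged over the alternatives from 5 to 9 higher for cardiomyocytes, 0 to 3 lower for fibroblasts, 0 to 6 higher for endothelium and 0 to 5 lower for macrophages, and those of the further imprinted genes from 0 to 3 higher and 0 to 5 lower. Allele of origin, methylation and strand were not measured in these counts, and the 10 genes below the filter were tested only without it. The study measured promoter methylation separately, in selected genes of which none is on this list.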
